A study of Homo sapiens with 3 samples.

Results

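IL1R2, IL18, the chemokines CXCL1, CXCL2, CXCL3, CXCL16 and CCL20, and the NF-kB target genes NFKBIA, TNFAIP3 and ICAM1 were followed in YB5 cells treated with decitabine, carboplatin or both drugs. These 10 genes, of 18611 genes measured, were found by their names in the array design, and they were represented by 14 of 41000 probes and 32 of 43376 spots of gene probes. The members were selected on their log2 changes on these same arrays, so those changes are a description and were not tested.

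All groups are of 1 clone: YB5 was grown from colon cancer cells of the line SW48, and methylation keeps the CMV promoter of its GFP reporter, present once, silent. Decitabine (25 nM), carboplatin (20 µM by the labels) or both were added in 4 doses on days 1 to 4, control cells received the diluent DMSO, and all cells were harvested on day 6. RNA was measured on 3 dual-colour Agilent arrays, 1 array per treatment, with control RNA in the red channel (Cy5) and treated RNA in the green channel (Cy3) of every array. The arrays are named here by their sample labels as decitabine-labelled, carboplatin-labelled and combination array. There is no replicate array and no dye swap, which limits how precise any value is, and it is not stated whether the control channels share 1 RNA extract.

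Interleukin-1 and related ligands bind receptors that signal through MyD88 and IRAK kinases to the IkB kinases, which release NF-kB to the nucleus. IL1R2 is a decoy receptor: it binds interleukin-1 but has no signalling domain. Epithelial cells of the gut use NF-kB to induce chemokines that draw in neutrophils and lymphocytes, together with inhibitors such as NFKBIA and TNFAIP3 that shut the response down.

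Changes are given as log2 of treated over control after background correction and loess normalization, and a gene was called at a change of at least 1.5-fold, which is 0.58 on the log2 scale. Mean signals are scanner units before that normalization. The treated channel was dimmer throughout (median signal 166, 163 and 167 against 297, 315 and 282 in the control channel of the decitabine-labelled, carboplatin-labelled and combination arrays), so a raw treated signal below the control signal is not by itself a lower level. Between 65.8 and 70.3 % of spots were well above background in a channel. In the first 9 columns of the decitabine-labelled array, which hold 10.1 % of its spots, the control level differed by −0.92 (log2) from that of the remaining arrays, and the median change was 0.75, compared with −0.02 elsewhere on that array. Values of probes that lie there are given apart.

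Carboplatin damages DNA, which is known to activate p53, and decitabine inhibits DNA methylation, which is known to silence cancer-testis genes. Of 20 p53 target genes, 19 were at least 1.5-fold higher on the decitabine-labelled array, 12 on the carboplatin-labelled array and 19 on the combination array. Of 16 cancer-testis genes the numbers were 0, 4 and 4, and only 5, 7 and 8 of the 16 were well above background in a channel. Of all genes 10.6, 2.76 and 7.47 % were higher on the same arrays. The p53 targets and cancer-testis genes thus go against the labels of the arrays of single drugs, and each direction below is that of the array so labelled. Of 12 markers of epithelium and colon, 10 were well above background in the control channel of all 3 arrays, EPCAM, CDH1 and KRT18 among them, and CDX1 on none. Of 12 leukocyte markers 4 were above background on all arrays and 6 on none, the pan-leukocyte marker PTPRC among the latter, and of 10 fibroblast and endothelial markers 2 and 8 were.

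The sequences of 4 probes are given because the results of their genes turn on them. The scanner files place them on GRCh37, and annotation of exons and untranslated regions on that build was not used here. The first is the second probe of IL1R2, in an edge column, at chr2:102632505-102636150 on the plus strand. Its 60 bases are spread over 3646 bases of the genome, so the probe crosses at least 1 intron. The next is the probe of IL18, spotted 10 times, at chr11:112020811-112020870 on the minus strand. The last pair, on the minus strand at chr4:74964342-74964401 for CXCL2 and chr4:74902991-74903865 for CXCL3, is shown because their ends overlap in sequence: capitals mark identical bases in the best alignment without gaps, 30 of 32.
IL1R2, A_24_P63019: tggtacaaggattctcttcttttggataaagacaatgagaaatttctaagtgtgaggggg
IL18, A_23_P104798: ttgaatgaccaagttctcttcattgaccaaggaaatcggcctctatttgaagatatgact
CXCL2, A_24_P257416: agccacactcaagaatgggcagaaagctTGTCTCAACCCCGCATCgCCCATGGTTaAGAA
CXCL3, A_24_P251764: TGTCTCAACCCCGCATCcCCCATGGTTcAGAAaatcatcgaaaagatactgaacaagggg

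All other pairs among the CXCL1, CXCL2 and CXCL3 probes shared between 30.5 and 40.4 % of bases in their best alignment, against 93.8 % for this pair. Signal from CXCL2 and CXCL3 transcripts may therefore not be separable at these 2 probes, while the other probe of each gene does not share the stretch. The array design itself lists transcripts of both genes for this CXCL2 probe.

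The decoy receptor IL1R2, the chemokines CXCL1 and CCL20 and the cytokine IL18 lay at least 1.5-fold below control on both the decitabine-labelled and the combination array, and ICAM1 lay above it. By its brighter probe IL1R2 was 6.37-fold and 6.52-fold lower on these arrays, and on the carboplatin-labelled array it lay near its control. Of the 10 members, 5 were called lower and 1 higher on the decitabine-labelled array, where 4.67 % of all genes were called lower and 10.6 % higher. On the carboplatin-labelled array no member was called, and 1.49 and 2.76 % of all genes were. The combination array had 4 members lower and 1 higher, against 5.93 and 7.47 % of all genes. The median change of the members was −0.43, −0.09 and −0.07 on the decitabine-labelled, carboplatin-labelled and combination arrays, and that of all genes 0.01, −0.01 and 0.00. In these bulk samples fewer cells that express a gene and less RNA per cell cannot be told apart.

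**Figure D1:**
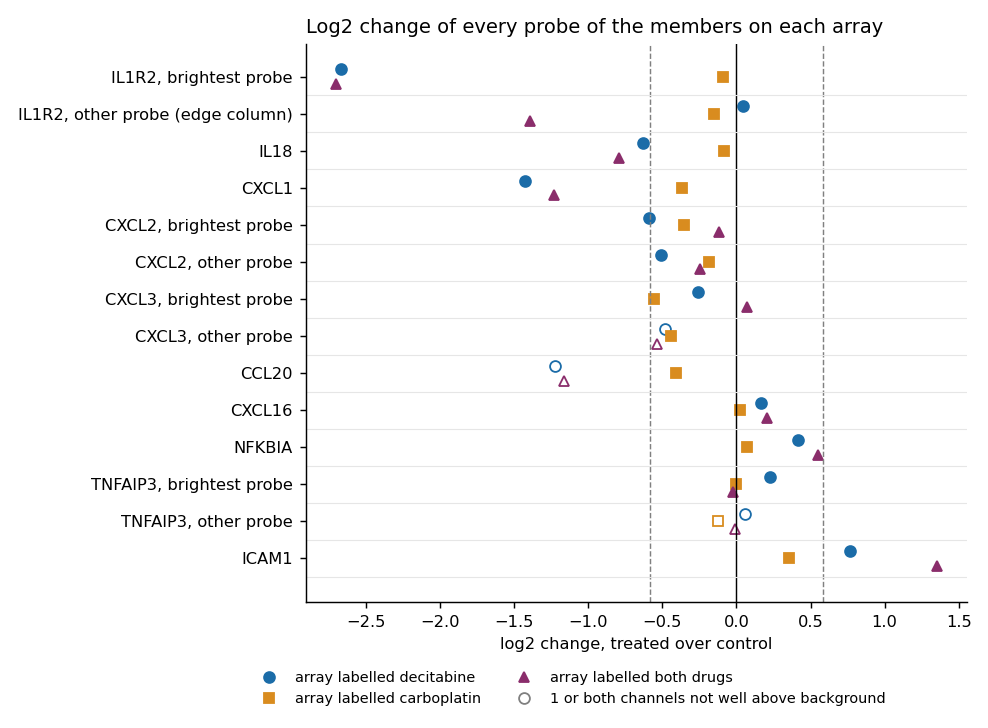
Log2 change (x axis, treated over control) of all 14 probes of the members (rows), with 1 symbol per array. Dashed lines mark 1.5-fold and open symbols a probe with 1 or both channels not well above background. The brightest probe of IL1R2 lies at −2.67 and −2.70 on the decitabine-labelled and combination arrays and at −0.09 on the carboplatin-labelled array, whereas ICAM1 lies to the right of 0 on all 3.

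IL1R2 was represented by a probe at chr2:102644776-102644835, outside the edge columns. Its mean signal was 508 in treated and 7310 in control cells on the decitabine-labelled array, 2610 and 6665 on the carboplatin-labelled array, and 471 and 6184 on the combination array. The treated channel was low on the first and the last of these, and it was near its control, after normalization, on the carboplatin-labelled array. The changes of −2.67, −0.09 and −2.70 correspond to a level 6.37-fold lower, 1.07-fold lower and 6.52-fold lower. The normalized control level of this probe varied by 0.17 (log2) over the 3 arrays and the treated level by 2.52. IL1R2 had the lowest change of all 18611 genes on the decitabine-labelled array and the third lowest on the combination array, whereas it ranked 6220 from the lowest on the carboplatin-labelled array. These ranks include genes not above background and depend on the processing: with processed signals, in place of the normalization used here, CCL20 (−4.32 and −4.41) lay below IL1R2 (−2.91 and −2.87).

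The second probe of IL1R2, which detects the junction-spanning sequence shown above, did not follow the first on the decitabine-labelled array. Its signals were 130 in treated and 189 in control cells there, 184 and 413 on the carboplatin-labelled array, and 74.5 and 336 on the combination array. Its change was 0.04, −0.15 and −1.39 in that order. The low control signal of 189 stands out from 413 and 336, and the normalized control level of this probe varied by 1.03 over the arrays. The probe lies in column 6, among the edge columns. On the combination array the probes differed by −1.31 (brighter minus dimmer), by 0.04 with the processed signals of the scanner software and by −1.61 with the authors' deposited values. On the decitabine-labelled array they differed by −2.71, by −2.49 with processed signals and by −2.35 with the authors' deposited values. With the mean of both probes IL1R2 changed by −1.31, −0.12 and −2.05, so that it stayed beyond 1.5-fold lower on the decitabine-labelled and combination arrays.

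IL18, a cytokine of the interleukin-1 family that epithelial cells store as a precursor, was measured by 10 spots of the probe shown above. Mean signals over the spots used were 1294 in treated and 4519 in control cells on the decitabine-labelled array, 1821 and 4555 on the carboplatin-labelled array, and 1115 and 3897 on the combination array. The log2 change was −0.63 ± 0.038 (SD between 7 spots) on the decitabine-labelled array, −0.08 ± 0.053 (10 spots) on the carboplatin-labelled array and −0.79 ± 0.025 (10 spots) on the combination array. The spots used ranged from −0.67 to −0.57 on the decitabine-labelled array and from −0.83 to −0.77 on the combination array. On the carboplatin-labelled array they ranged from −0.16 to −0.02. Such spots repeat 1 hybridization, so their SD holds no biological error. On the decitabine-labelled array 3 spots marked as outliers by the scanner software were left out, and those in columns 3 and 6 had changes of 0.86 and 0.85, against −0.58 for the one in column 37. With all 10 spots kept, the change on that array was −0.33, within 1.5-fold.

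ICAM1, the adhesion molecule that holds leukocytes on endothelium and epithelium and a gene long used as an NF-kB target, was the 1 member called higher. Its mean signal over the spots used was 510.5 in treated and 624 in control cells on the decitabine-labelled array, 359 and 592 on the carboplatin-labelled array, and 701 and 514 on the combination array. The log2 change was 0.76 ± 0.045 (SD between 9 spots), 0.35 ± 0.064 (10 spots) and 1.35 ± 0.031 (10 spots) in that order, or 1.70-, 1.28- and 2.56-fold. The spots used ranged from 0.69 to 0.84, from 0.26 to 0.47 and from 1.30 to 1.39, and on each array they repeat 1 hybridization. The change with both drugs was 0.59 above that on the decitabine-labelled array. The spot of ICAM1 in column 5 of the decitabine-labelled array, marked as an outlier and left out, read 1.96 with a control signal of 224. Centring each array on its median in place of loess lowered the changes to 0.36, 0.08 and 1.03, the first of which is within 1.5-fold.

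**Figure D2:**
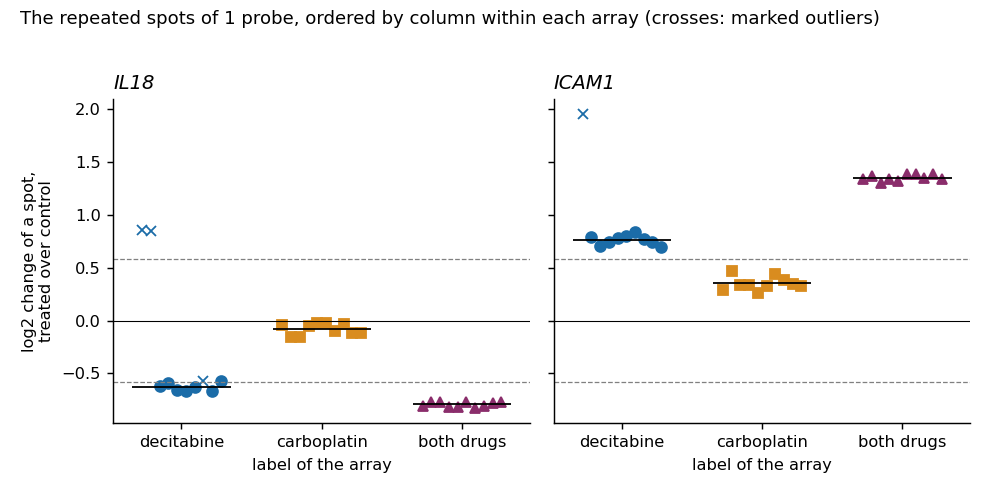
Log2 change (y axis, treated over control) of each of the 10 spots of the IL18 probe (left) and the ICAM1 probe (right) on the 3 arrays, ordered by column on the array. Crosses are spots marked as outliers, horizontal bars are the mean of the other spots and dashed lines mark 1.5-fold. The IL18 spots at 0.86 and 0.85 and the ICAM1 spot at 1.96 on the decitabine-labelled array lie in the edge columns, apart from all other spots of their probe.

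CXCL1, a chemokine that draws in neutrophils through CXCR2, had a mean signal of 124 in treated and 686 in control cells on the decitabine-labelled array, 230.1 and 605 on the carboplatin-labelled array, and 141 and 577 on the combination array. The probe lies at chr4:74736850-74736909 and was well above background in both channels of all 3 arrays. Its log2 change was −1.43, −0.37 and −1.23, so the level was 2.69-fold lower on the decitabine-labelled array and 2.35-fold lower on the combination array. The treated channel ranged over 0.84 on the log2 scale between arrays, the control channel over 0.22.

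CCL20, which attracts lymphocytes and dendritic cells through CCR6, had mean signals of 55.2 and 265, 105 and 255, and 58.3 and 224 in treated and control cells of the decitabine-labelled, carboplatin-labelled and combination arrays. The treated channel was not well above background on the first and the last array, so only a limit is known there. Under the normalization used here the level was at least 2.34-fold lower on the decitabine-labelled array and at least 2.24-fold lower on the combination array. These limits are the same as the fitted changes of −1.23 and −1.16, because the treated level of the probe itself set them. Median centring gave −1.25 and −1.14. On the carboplatin-labelled array both channels were well above background and the change was −0.41. The processed signals gave −4.32 and −4.41 in place of −1.23 and −1.16, so the size of the difference depends on how signals near background are treated. CCL20 was called lower on both of these arrays under all 9 alternatives, though the mean of all probes and dim probes left out could not change its value.

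**Figure D3:**
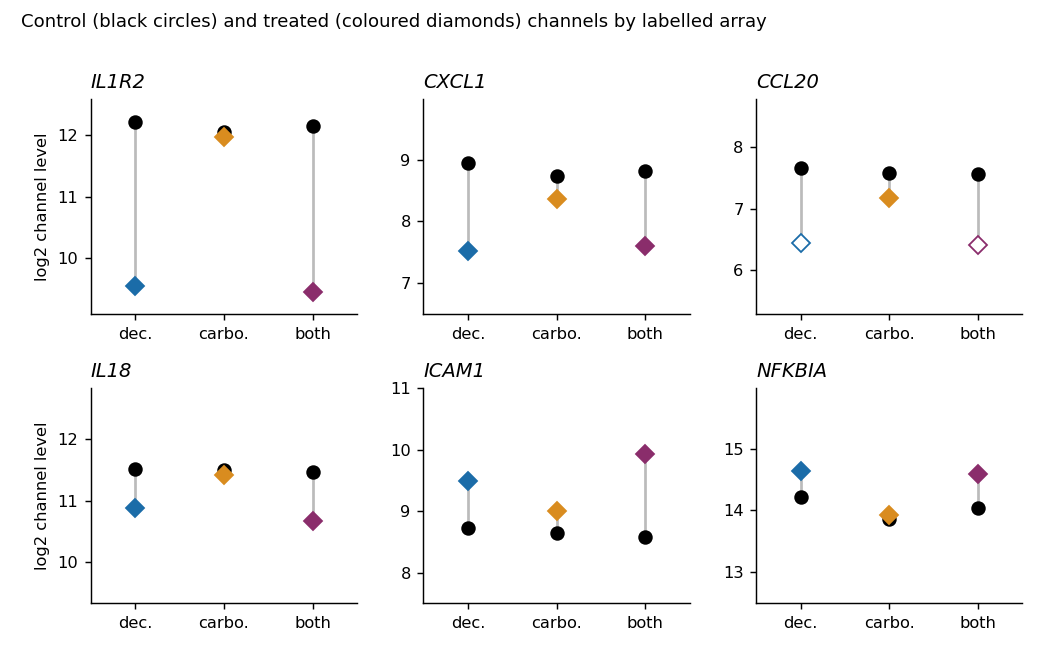
Normalized log2 level (y axis) of the control channel (black circles) and the treated channel (diamonds) for 1 probe of 6 members on the decitabine-labelled (dec.), carboplatin-labelled (carbo.) and combination (both) arrays. The y axes span the same range but start at different levels, and open diamonds are not well above background. The control levels of IL1R2 vary by 0.17 over the arrays, and the treated level is 2.52 lower where it is lowest than where it is highest.

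CXCL2 and CXCL3 encode close relatives of CXCL1 that act on the same receptor. The brighter probe of CXCL2 had signals of 137 and 419, 155 and 395, and 189 and 369 in treated and control cells of the decitabine-labelled, carboplatin-labelled and combination arrays. Its changes of −0.59, −0.35 and −0.12 put it just beyond 1.5-fold on the decitabine-labelled array alone. The other CXCL2 probe, which overlaps in sequence with CXCL3, changed by −0.51, −0.19 and −0.24 and was called on no array.

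The brighter probe of CXCL3, which is the one of that overlap, had signals of 275 and 667, 214 and 643, and 324 and 564 in treated and control cells of the decitabine-labelled, carboplatin-labelled and combination arrays. Its change was −0.26, −0.56 and 0.07, so that the carboplatin-labelled array was the lowest. The other CXCL3 probe changed by −0.48, −0.44 and −0.54. Its treated channel was not well above background on the decitabine-labelled and combination arrays. Under the normalization used here the level was at least 1.40-fold and 1.45-fold lower there, limits that are the same as the fitted changes. Median centring gave smaller changes of −0.37 and −0.43 on these arrays. On the carboplatin-labelled array, where both probes were well above background, they differed by −0.11 (brighter minus dimmer). With processed signals they differed by 1.90, 0.61 and 1.5 on the decitabine-labelled, carboplatin-labelled and combination arrays. For CXCL3 on the combination array 3 of 9 alternatives gave the opposite sign.

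CXCL16, a membrane-bound chemokine that also serves as a scavenger receptor, had signals of 1864 and 3744, 1547 and 3580, and 1807 and 3160. Its changes of 0.16, 0.02 and 0.20 were within 1.5-fold on every array, and all 3 were below 0 with median centring (−0.37, −0.44 and −0.24).

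NFKBIA, which encodes IkB-alpha, the inhibitor that NF-kB itself induces, had signals of 16951 in treated and 30437 in control cells on the decitabine-labelled array, 10001 and 23739 on the carboplatin-labelled array, and 16016 and 23911 on the combination array. No spot was saturated. Its changes of 0.41, 0.07 and 0.55 stayed below 1.5-fold. The control level varied by 0.37 over the arrays and the treated level by 0.71. With median centring the changes were −0.21, −0.48 and −0.01. TNFAIP3, which encodes the ubiquitin-editing enzyme A20, had a brighter probe with changes of 0.23, 0.00 and −0.02, and a dimmer probe that was not well above background in either channel of any array.

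On both the decitabine-labelled and the combination array IL1R2 lay below CXCL1, CXCL1 below IL18, and ICAM1 highest, followed by NFKBIA. The place of CCL20 in this order is not known, since its treated channel was not well above background there: its fitted change lay between those of CXCL1 and IL18, and with processed signals it lay below IL1R2. With the mean of all probes IL1R2 (−1.31) lay above CXCL1 (−1.43) on the decitabine-labelled array. As a measure of technical error, 264 probes spotted 10 times had a pooled SD of 0.23, 0.075 and 0.077 on the decitabine-labelled, carboplatin-labelled and combination arrays, and of 0.079, 0.074 and 0.076 without the edge columns. Beside the latter, IL18 and CXCL2 on the decitabine-labelled array were 0.04 apart and CXCL16 and TNFAIP3 0.06 apart, so these neighbours in the order did not differ beyond the spread of repeated spots. On the carboplatin-labelled array the lowest members were CXCL3, CCL20, CXCL1 and CXCL2, between −0.56 and −0.35, and among them CCL20, CXCL1 and CXCL2 were within that spread of each other. With both drugs the brighter probes of CXCL2 and CXCL3 lay 0.47 and 0.33 above their changes on the decitabine-labelled array, and the brighter probe of IL1R2 differed from its own by −0.03. The other CXCL2 probe differed by 0.26, and the other CXCL3 probe, near background, by −0.05.

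RefSeq promoters (GRCh38.p14, 250 bases before to 50 bases after a gene's start) were found for 8 of the 10 members, all but IL18 and CXCL16. The 110 bases before the start of CXCL1, CXCL2 and CXCL3 are shown because the changes of these neighbours were unequal. Capitals mark matches to the kB consensus, searched on both strands, which overlap on the 2 strands.
CXCL1, chr4:73869283-73869392, plus strand: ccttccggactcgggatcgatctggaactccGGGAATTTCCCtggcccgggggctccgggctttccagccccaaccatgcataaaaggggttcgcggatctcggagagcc
CXCL2, chr4:74099196-74099305, minus strand: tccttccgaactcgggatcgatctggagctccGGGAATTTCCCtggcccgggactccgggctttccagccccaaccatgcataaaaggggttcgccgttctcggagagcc
CXCL3, chr4:74038690-74038799, minus strand: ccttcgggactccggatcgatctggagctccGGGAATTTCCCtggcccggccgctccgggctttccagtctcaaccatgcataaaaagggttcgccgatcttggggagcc

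The match began 79, 78 and 79 bases before the start in CXCL1, CXCL2 and CXCL3, which changed by −1.43, −0.59 and −0.26 on the decitabine-labelled array. The kB consensus was in the window of 7 of the 8 members, and in 11.3 % of all 35116 promoters. The former counts genes and the latter windows, and the members include genes chosen as NF-kB targets, so these numbers cannot be compared. The letters GGGAATTTCC were taken from the match in the CXCL1 window and then searched on either strand, so CXCL1 holds them by choice. They were also in the windows of CXCL2, CXCL3 and NFKBIA, and in 0.145 % of all promoters. Because of that choice, and because the CXCL windows shown are alike, the members cannot be compared with that share. Members with these letters thus included the lower CXCL1 and the NFKBIA of 0.41. ICAM1 had no match in its window, and IL1R2 had a match in 1 of its 2 windows, 125 bases before that start. A match is a run of letters and not a measured binding site.

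Other genes of the pathway were counted in lists that were chosen with earlier results of these data known. Of 17 further ligands, receptors and inhibitors of the interleukin-1 and interleukin-18 system, 2, 0 and 1 were called lower on the decitabine-labelled, carboplatin-labelled and combination arrays and none higher, beside 4.67, 1.49 and 5.93 % of all genes called lower. Only 9, 10 and 9 of them were well above background in a channel. These counts depend on the processing. Processed signals gave 5, 1 and 0 higher and 7, 4 and 6 lower. Of all genes 24, 7.79 and 12.9 % were higher with these signals and 11.8, 6.13 and 11.3 % lower. Median centring gave 0, 3 and 0 higher and 4, 2 and 3 lower. It called 9.21, 8.99 and 4.34 % of all genes higher and 24.1, 19.1 and 21.4 % lower. IL36G, an epithelial cytokine of the family, had a treated channel not well above background on the decitabine-labelled and combination arrays. Under the normalization used here it was at least 1.58-fold and at least 1.73-fold lower there, limits that are the same as its fitted changes of −0.66 and −0.79. Median centring put IL36G at −0.59 and −0.73 on these arrays. Its change on the carboplatin-labelled array was −0.23. SIGIRR, an inhibitory receptor of the family, had changes of −0.64, −0.18 and −0.49. The signalling receptor IL1R1, for whose ligand IL1R2 competes, changed by −0.44, 0.55 and −0.21, and its partner chain IL1RAP by −0.45, −0.53 and −0.58, all within 1.5-fold.

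Of 16 genes of receptor-proximal signalling, TRAF2, an adaptor of the TNF receptor, was the 1 gene called: its changes were 0.10, 0.64 and 0.27. Among 21 other chemokine ligands no more than 5 were well above background on an array. The 1 called gene of that list (CCL24) and the 1 called among 5 chemokine receptors (CXCR1) lie in the edge columns and were called on the decitabine-labelled array alone.

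Of 13 further NF-kB subunits, IkB proteins and kinases, all of which were above background, 5, 0 and 4 were called higher and none lower, beside 10.6, 2.76 and 7.47 % of all genes called higher. The median change of the list was 0.31, 0.10 and 0.24. Without the edge columns, which hold REL, 4 of 12 were called higher on the decitabine-labelled array, beside 5.12 % of all genes. RELB, the subunit of the non-canonical pathway, changed by 1.40, 0.57 and 1.45. MAP3K14, the kinase (NIK) that starts that pathway, changed by 1.1, 0.21 and 1.16, and NFKB2, its precursor subunit, by 0.69, 0.26 and 0.78. NFKBIE, an IkB protein, changed by 0.64, 0.45 and 0.68. With median centring the list had 1, 0 and 2 genes called higher and 2 called lower on each array. Of all genes 9.21, 8.99 and 4.34 % were then called higher and 24.1, 19.1 and 21.4 % lower. RELB remained higher at 0.85 and 0.99 on the decitabine-labelled and combination arrays.

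**Figure D4:**
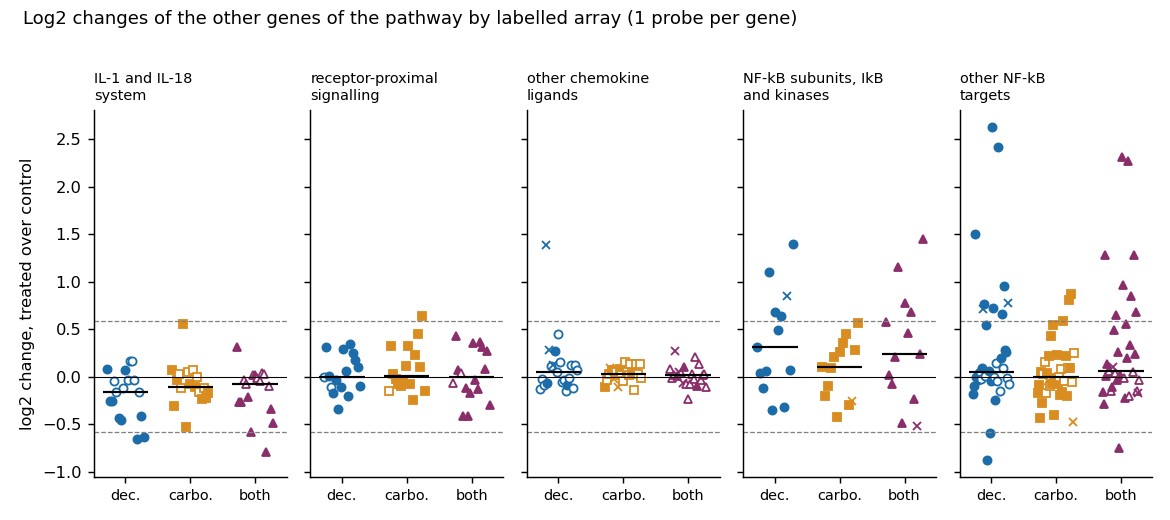
Log2 change (y axis, treated over control) of the measured genes of 5 lists, 1 probe per gene, on the decitabine-labelled (dec.), carboplatin-labelled (carbo.) and combination (both) arrays. Horizontal bars are medians, dashed lines mark 1.5-fold, open symbols are genes not well above background in either channel and crosses are probes in the edge columns. The lists of NF-kB subunits and of NF-kB targets reach 1.40 and 2.63 on the decitabine-labelled array, while the other chemokine ligands outside the edge columns stay within 1.5-fold.

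Of 34 other NF-kB target genes, 9, 2 and 8 were called higher and 2, 0 and 1 lower on the decitabine-labelled, carboplatin-labelled and combination arrays, with median changes of 0.05, −0.01 and 0.06. Of all genes 10.6, 2.76 and 7.47 % were called higher and 4.67, 1.49 and 5.93 % lower. With median centring 3, 3 and 5 of the targets were higher and 5, 6 and 3 lower. The balance thus turned on the decitabine-labelled and carboplatin-labelled arrays. Of all genes 9.21, 8.99 and 4.34 % were then higher and 24.1, 19.1 and 21.4 % lower, so the balance of all genes turned as well. Without the edge columns 7 of 33 targets were higher and 1 lower on the decitabine-labelled array, beside 5.12 and 4.9 % of all genes. PLAU, the urokinase that activates plasminogen, changed by 2.63, 0.23 and 2.31, and its receptor PLAUR by 0.72, −0.07 and 0.97. SDC4, a heparan sulfate proteoglycan of the cell surface, changed by 2.42, 0.58 and 2.27. BIRC3, an inhibitor of apoptosis, changed by 1.5, −0.43 and 1.28, and TNFAIP2 by 0.96, 0.81 and 1.28. TAP1, a peptide transporter for antigen presentation, changed by 0.66, −0.21 and 0.85. TNIP2, which binds A20, was called on the carboplatin-labelled and combination arrays (0.26, 0.87 and 0.68). LCN2, an iron-binding antimicrobial protein of epithelium, was lower on the decitabine-labelled array alone (−0.88, −0.07 and −0.04). PLAU, SDC4 and BIRC3, the targets of this list with the largest changes, lay higher on the arrays on which CXCL1, CCL20 and IL1R2 lay lower. The member ICAM1 also lay higher there. The median target changed by only 0.05 and 0.06 on these arrays, and MAP3K8 of the same list was called lower on both (−0.59 and −0.75). Its call on the decitabine-labelled array was marginal: without the edge columns the change was −0.580, just within 1.5-fold.

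The 12 leukocyte markers had median changes of −0.03, 0.00 and 0.02. Their summed level (log2) ranged from 11.2 to 11.4 in the control channels and was 11.4, 11.1 and 11.6 in the treated channels. CD79A had the highest control level of them, 10.5 as the mean over the arrays, so the sum rests mainly on this marker. It changed by −0.13, −0.37 and 0.28. CD68, named here after its values were seen, was the 1 leukocyte marker called (0.99, 0.40 and 1.53). Like CD68, the markers CD79A, CD14 and CD3E were well above background in the control channel of all 3 arrays. PTPRC, CD3D, MS4A1, CSF1R, NCAM1 and LAPTM5 were not well above background in the control channel of any array.

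The 5 genes most like IL1R2, by the Euclidean distance of the 3 log2 changes among 12281 genes well above background on every array and outside the edge columns, were CLRN3, MACROD2, LGR6, H4C3 and PRR15L, at distances of 0.43 to 0.87. CLRN3 changed by −2.56, −0.51 and −2.68. Those most like CXCL1 were ZBTB20, GALNT14, KRT9, PRC1 and KIF18A, at distances of 0.083 to 0.17. ZBTB20 changed by −1.36, −0.36 and −1.27. Likeness over 3 arrays is a description of these values.

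**Figure D5:**
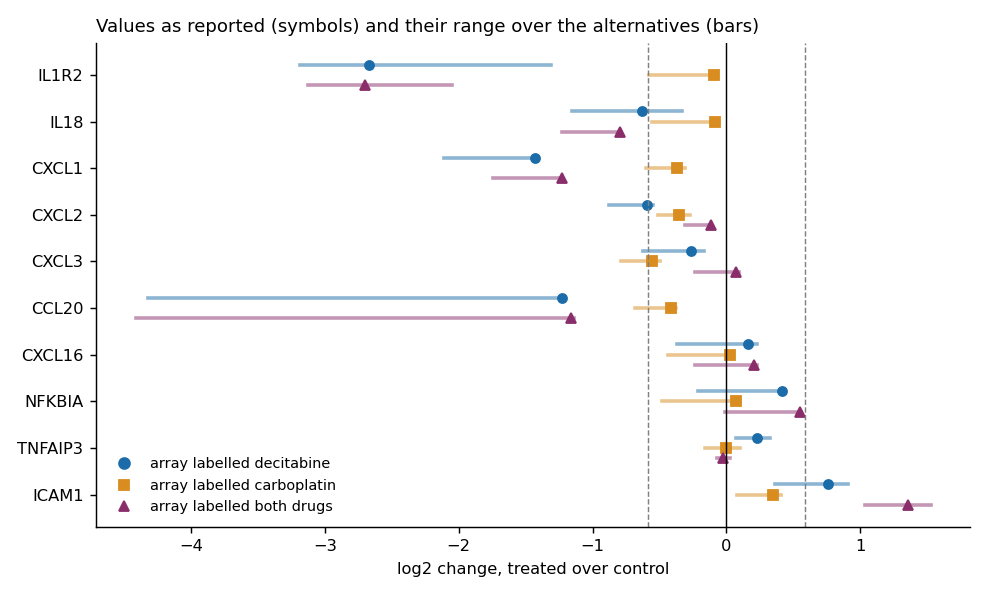
Log2 change as reported (symbols) of the 10 members (rows) on the 3 arrays, with bars from the lowest to the highest value over the 9 alternatives of processing. Dashed lines mark 1.5-fold. The bars of IL1R2, CXCL1 and CCL20 on the decitabine-labelled and combination arrays lie wholly beyond 1.5-fold lower, and the bar of ICAM1 on the combination array lies between 1.03 and 1.53.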

How the data were processed

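The deposited scanner files give the intensity of each spot in both channels, read by Agilent Feature Extraction (9.5.3.1 per the file headers, 8.5.1.1 per the labels). Their processed signals were background subtracted and dye normalized by that software, and their log ratio is the deposited log10 of red over green, turned here to log2 of treated over control. The authors' table gives log2 ratios that the authors normalized by loess with limma and agilp. Its direction follows from how it correlated with the scanner log ratio (0.789, 0.682 and 0.795). Column medians are −0.01, 0 and −0.01.

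Here mean signals were corrected by normexp (offset 50) and loess with limma 3.58.1 in R 4.3.3, without control spots and the 276, 111 and 89 spots marked as outliers. Spots of a probe were averaged, and a gene was represented by its brightest probe. Channel levels came from Aquantile scaling. Where 1 channel was not well above background, the limit sets it at the lowest signal above background of that array, or at its own signal if higher. Such a limit holds under this normalization only. Of 41000 probes 29381 matched a RefSeq gene. The functions were tested on simulated data. The members and lists were chosen with earlier results of these data known. Every member is named, and of each pathway list up to 8 genes with the largest changes among those at least 1.5-fold changed, above background and outside the edge columns. MAP3K8, IL1R1, IL1RAP and, in the edge columns, REL, CCL24 and CXCR1 are named outside this rule. No test was run, since each treatment has 1 array. Figures were drawn with matplotlib 3.10.9.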

Additional observations from a re-analysis of the deposited data

How the results depend on the processing

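Each change of a member was recomputed under 9 alternatives: median signals without background subtraction, processed signals, median centring, the scanner log ratio, no edge columns, outlier spots kept, the authors' deposited values, the mean of all probes, and dim probes left out. No called change of a member changed sign. Of 270 values 178 moved by less than the pooled SD of repeated spots without the edge columns (0.079, 0.074 and 0.076) and 92 by more. Median centring shifted the median of all genes to −0.14, −0.16 and −0.10 on the decitabine-labelled, carboplatin-labelled and combination arrays, and the share of higher among called genes from 69.4, 64.9 and 55.8 % to 27.7, 32 and 16.8 %. Without the edge columns that share was 51.1 % on the decitabine-labelled array.

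On the decitabine-labelled array, median centring gave 0 members higher, beside 9.21 % of all genes, and a median change of the members of −0.73. Outlier spots kept gave a median of −0.30. A call at 2-fold gave 0 members higher and 3 lower, beside 6.28 and 1.05 % of all genes. On the carboplatin-labelled array 2 members were called lower, instead of none, with processed signals, median centring, scanner log ratio and the authors' deposited values. Of all genes 6.13, 19.1, 6.13 and 2.84 % were called lower there, in that order. The median of the members was −0.49 with median centring and −0.25 with the authors' deposited values. On the combination array the median of the members was −0.15 with processed signals and with the scanner log ratio, −0.27 with median centring and −0.21 with the mean of all probes. CXCL2 on the decitabine-labelled array was called under 7 of 9 alternatives, and IL18 and ICAM1 there under 8 of 9. The causes of these shifts were not tested. No paired analysis was possible because each treatment has 1 array. Precision is limited by signal over background for CCL20, CXCL3 and TNFAIP3.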
